A study of Mus musculus with 50 samples.

Results

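The genes described here were 35 genes of cholesterol and fatty acid synthesis that are known targets or regulators of the sterol regulatory element-binding proteins (SREBPs). They were chosen by name, with earlier results of these data known, and all 35 symbols were found among the 24984 genes of the deposited count tables. The sterol arm held 18 enzymes of cholesterol synthesis, the fatty acid arm held 11 genes of fatty acid and triglyceride synthesis, and 6 genes were regulators or carried sterol (Srebf1, Srebf2, Scap, Insig1, Insig2 and Stard4). RNA-seq covered 38 libraries in 10 groups, and ATAC-seq, which maps chromatin that the Tn5 transposase can enter, covered 12 libraries in 4 groups. All animals were C57BL/6 mice. Kidney and liver without any treatment were taken at 2.5 months (young) and at 23 to 25 months (old), with 4 RNA-seq and 3 ATAC-seq libraries in each group, and the study's methods give these mice as female. A second set of kidneys and livers came from mice of 20 to 21 months that had received the solvent DMSO or a treatment named 3C, with 4 RNA-seq libraries in each group. Cultured skin fibroblasts of mice labelled P9 had received DMSO or 3C, with 3 RNA-seq libraries in each group. The nature of 3C and the meaning of P9 are left unstated by the labels. No source used here ties replicates to separate animals or cultures, so p-values measure the spread between these libraries. That spread exceeded counting noise (smallest chi-square per degree of freedom 8.12 over 54 pairs of libraries within groups) but may still be technical.

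SREBPs are made as membrane proteins of the endoplasmic reticulum. When sterol is scarce the escort protein SCAP carries them to the Golgi, where proteases release the part that enters the nucleus and switches on lipid synthesis genes, and when sterol is plentiful the INSIG proteins hold SCAP back. SREBP-2, the product of Srebf2, acts mainly on cholesterol synthesis, whereas SREBP-1c, a product of Srebf1, is driven by insulin and by the oxysterol receptor LXR and acts mainly on fatty acid synthesis in the liver. At promoters, SREBPs are weak activators that work beside the CCAAT-binding factor NF-Y and the GC box-binding factor Sp1.

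Promoter sequences are shown first because SREBPs act there. No sequence was read to choose the members, but known SREBP targets are also known for CCAAT and GC boxes, so the shares below are a description. RefSeq promoters on GRCm38.p6, each of 300 bases from 250 before to 50 after a start, were matched for 29 of the 35 members, which had 39 such promoters. No promoter in the table was found for Sqle, Fdps, Fdft1, Stard4, Scd1 and Dgat2. CCAAT, searched on both strands, stood in 77.8% of sterol arm promoters, 63.6% of fatty acid arm promoters and 37.4% of all 32851 promoters of the table. The GC box GGGCGG stood in 83.3% of sterol arm promoters, 36.4% of fatty acid arm promoters and 35.7% of all promoters. The 10-base consensus of the sterol regulatory element (SRE-1), searched on both strands with any base allowed at the sixth position, was found in no member promoter and in 0.234% of all promoters, but with 1 mismatch allowed it was found in 5 of 39 (12.8%) against 5.34% of all. Those 5 were promoters of Hmgcs1, Nsdhl, Msmo1, Srebf2 and Acly. The E-box CACGTG stood in 16.7% of sterol arm promoters, in none of the 11 fatty acid arm promoters and in 7.15% of all.

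The promoters below belong to members whose values in old kidney are given in detail. These are Hmgcs1, Msmo1, Srebf2 and Insig1, whose ATAC-seq peaks were higher there, and Me1 and Gpam, whose RNA was lower. Capitals mark CCAAT on either strand, so that it may appear as its reverse complement, and the same sterol regulatory element consensus, with its free sixth position, at 1 mismatch. In Msmo1 these overlap by 2 bases and form 1 run of capitals.
Hmgcs1, chr13:119690101-119690400, plus strand: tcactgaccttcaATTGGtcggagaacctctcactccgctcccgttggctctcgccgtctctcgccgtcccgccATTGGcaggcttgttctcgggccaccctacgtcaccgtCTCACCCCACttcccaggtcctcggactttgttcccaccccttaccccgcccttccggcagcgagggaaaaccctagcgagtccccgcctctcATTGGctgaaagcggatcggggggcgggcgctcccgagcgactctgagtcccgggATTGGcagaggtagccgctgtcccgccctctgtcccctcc
Msmo1, chr8:64733529-64733828, minus strand: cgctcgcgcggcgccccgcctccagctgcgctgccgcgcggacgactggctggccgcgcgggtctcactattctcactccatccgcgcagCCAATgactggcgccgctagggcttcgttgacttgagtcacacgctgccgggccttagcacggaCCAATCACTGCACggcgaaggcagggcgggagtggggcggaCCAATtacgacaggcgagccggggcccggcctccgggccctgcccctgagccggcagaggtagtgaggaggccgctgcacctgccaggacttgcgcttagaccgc
Srebf2, chr15:82147019-82147318, plus strand: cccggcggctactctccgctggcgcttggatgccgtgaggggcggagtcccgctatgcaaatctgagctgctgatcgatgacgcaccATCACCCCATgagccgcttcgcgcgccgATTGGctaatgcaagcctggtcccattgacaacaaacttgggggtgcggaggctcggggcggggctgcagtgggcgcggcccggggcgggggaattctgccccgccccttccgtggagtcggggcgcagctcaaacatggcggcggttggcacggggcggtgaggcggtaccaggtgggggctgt
Insig1, chr5:28071162-28071461, plus strand: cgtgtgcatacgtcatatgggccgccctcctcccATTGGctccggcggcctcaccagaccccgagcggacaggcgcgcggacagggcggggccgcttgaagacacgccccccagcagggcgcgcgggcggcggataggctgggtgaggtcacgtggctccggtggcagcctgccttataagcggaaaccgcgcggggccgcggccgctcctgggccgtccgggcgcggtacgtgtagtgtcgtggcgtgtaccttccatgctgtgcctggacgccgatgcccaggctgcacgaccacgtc
Me1, chr9:86695865-86696164, minus strand: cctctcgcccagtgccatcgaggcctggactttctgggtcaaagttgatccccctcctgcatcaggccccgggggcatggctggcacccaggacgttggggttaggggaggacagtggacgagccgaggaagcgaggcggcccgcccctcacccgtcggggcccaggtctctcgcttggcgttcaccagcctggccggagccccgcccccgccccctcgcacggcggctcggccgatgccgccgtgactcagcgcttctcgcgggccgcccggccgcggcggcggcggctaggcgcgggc
Gpam, chr19:55127189-55127488, minus strand: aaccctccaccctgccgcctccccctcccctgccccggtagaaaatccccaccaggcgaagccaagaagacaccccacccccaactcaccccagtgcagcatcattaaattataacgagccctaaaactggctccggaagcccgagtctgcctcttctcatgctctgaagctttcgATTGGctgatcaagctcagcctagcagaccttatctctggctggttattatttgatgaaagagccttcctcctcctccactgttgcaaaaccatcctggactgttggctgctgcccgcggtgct
Hmgcs1 held 4 CCAAT and 3 GC boxes, Msmo1 held 3 and 2, Srebf2 held 1 and 5, and Insig1 held 1 and 3. This Me1 promoter held no CCAAT and 4 GC boxes, and this Gpam promoter held 1 CCAAT and no GC box. The table has a second promoter for both genes, which for Me1 held 1 CCAAT and no GC box and for Gpam no CCAAT and 1 GC box. A match of letters is a description and does not show that a factor bound there.

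RNA-seq libraries held 14.2 to 43.7 M counts in genes, and each gene's level is given as CPM, its counts relative to the library total on the usual per-M scale, with TMM factors among the libraries compared, or as RPKM (CPM per kb of exon) where genes are compared. Summed proximal tubule markers were 10870 to 25240 CPM in young and old kidneys and at most 1.353 CPM in young and old livers, and summed fibroblast markers were at least 10430 CPM in the fibroblasts. Among the libraries of the age set, old kidney replicate 2 held 3241 CPM of hepatocyte markers, with all 8 markers present, against 293.8 to 489.4 CPM in the other 7 kidneys. In the 3C set, liver 3C replicate 4 held 29.58 CPM of proximal tubule markers and 8.508 CPM of distal nephron markers, against 0.6609 to 6.573 CPM and 0 to 0.7454 CPM in the other 7 livers. In bulk tissue, fewer cells of a type and less RNA per cell cannot be told apart. The files of the age set and the 3C set differ in the tally of reads that did not align uniquely, which is 0 in every library of the 3C set, so no test was made between the sets.

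Both arms differed more between tissues than between ages or treatments: young liver minus young kidney was 2.54 in the sterol score and 1.67 in the fatty acid score, while no age or 3C comparison moved a score by more than 0.487. As the plot of arm scores shows, the sterol arm score (the mean log2 CPM of its 18 genes) was 7.78 ± 0.54 in young liver and 5.24 ± 0.088 in young kidney (SD, n = 4), and it was 6.48 ± 0.069 in DMSO fibroblasts (SD, n = 3). The fatty acid arm score was 8.47 ± 0.55 in young liver, 6.80 ± 0.34 in young kidney (SD, n = 4) and 4.15 ± 0.053 in DMSO fibroblasts (SD, n = 3). By group mean, fibroblasts were the only cells in which the sterol score lay above the fatty acid score, and this held in each of their 6 libraries. In liver it held in young replicate 3 (8.34 and 7.97) but not in the other young livers. Their low fatty acid score held Thrsp (1 to 5 counts per library) and Pnpla3 (1 to 8 counts), a regulator of lipogenesis and a lipid droplet protein of the liver, which were close to absent. Summed over genes, the sterol arm held 1995 ± 119 CPM and the fatty acid arm 937 ± 45.7 CPM in DMSO fibroblasts (SD, n = 3). The spread between young livers, 7.09 to 8.34 in the sterol score, exceeded that between young kidneys, 5.13 to 5.32.

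**Figure D1:**
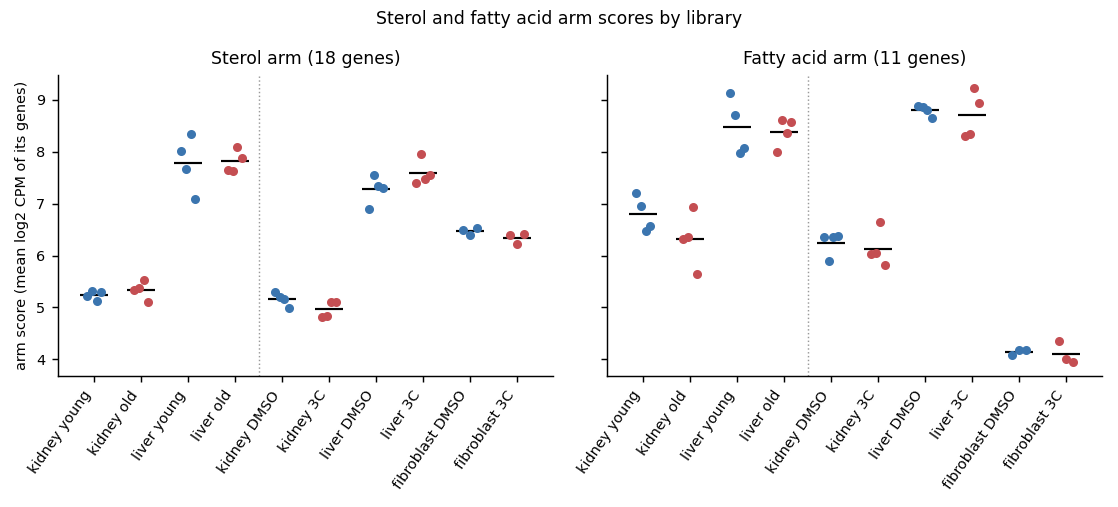
Each point is 1 RNA-seq library and each bar is the group mean; the vertical axis is the arm score in log2 CPM, with young and DMSO groups in blue and old and 3C groups in red, and the dotted line parts the age set from the 3C set. Liver lies highest in both panels, and fibroblasts lie between liver and kidney in the sterol panel and lowest in the fatty acid panel.

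In young mice, 31 of the 35 members were higher in liver than in kidney and none was lower by the edgeR quasi-likelihood test at a Benjamini-Hochberg adjusted p under 0.05, where 65.4% of all 14057 genes tested passed, 30.2% as higher and 35.1% as lower. At an unadjusted p under 0.05 the same 31 were higher and none was lower, and DESeq2 also gave 31 and none. Of the 31, 30 also passed a fold of 2, as 42.6% of all genes did, and in 28 members no library of one tissue overlapped the other, against 60.5% of all genes. The 4 that missed the test were Cyp51, Mvd, Srebf2 and Me1, with log2 fold changes of 0.20, 0.42, 0.22 and 0.30. The median log2 fold change was 2.48 in the sterol arm and 1.36 in the fatty acid arm, against -0.08 over all genes. In the DMSO set, 33 members were higher and 1 (Cyp51, log2 fold change -0.36) was lower, where 71.9% of 14981 genes passed, 33.2% as higher and 38.7% as lower. There 29 members passed the fold of 2 (42.3% of all genes) and 32 did not overlap (67.7%). The call of Cyp51 was lost without any 1 of 5 libraries (DMSO kidney replicates 1 and 4, DMSO liver replicates 1, 3 and 4), and that of Me1 (log2 fold change 0.49, edgeR adjusted p = 0.0461) with a filter at a mean of 1 CPM or without any DMSO kidney or DMSO liver replicate 1. In this set the arm medians stood in the other order, 2.01 in the sterol arm and 2.31 in the fatty acid arm.

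The sterol arm gene with the smallest p was Sc5d, the sterol C5-desaturase. It held 30.2, 27.0, 20.2 and 21.7 CPM in young kidney and 1273, 1028, 733 and 683 CPM in young liver (log2 fold change 5.23, SE 0.257, edgeR adjusted p = 4.23e-09). Every liver lay far above every kidney. Fdps, which makes farnesyl diphosphate, the branch point between sterols and other isoprenoids, held 18.4, 24.0, 13.3 and 22.5 CPM in young kidney and 557, 349.6, 523 and 306 CPM in young liver (log2 fold change 4.47, SE 0.264, edgeR adjusted p = 2.22e-08). These ranges did not meet either. Hmgcs1, the cytosolic HMG-CoA synthase at the entry of the pathway, held 260.1 to 316 CPM in young kidney and 272 to 1251 CPM in young liver (log2 fold change 1.34, SE 0.349, edgeR adjusted p = 0.00512), so that its groups overlapped although its test passed.

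Among the regulators the tissues differed most in Insig1, itself a target of SREBPs. Insig1 held 29.7, 31.7, 23.4 and 27.1 CPM in young kidney and 559.6, 465, 554 and 498 CPM in young liver, a fold of 18.5 (log2 fold change 4.21, SE 0.157, edgeR adjusted p = 4.05e-10). Insig2 held 44.2, 40.4, 43.1 and 37.97 CPM in kidney and 303, 331, 575 and 308 CPM in liver (log2 fold change 3.19, edgeR adjusted p = 8.79e-08). Srebf1 held 35.3, 34.8, 28.0 and 36.6 CPM in kidney and 184, 172, 133 and 167 CPM in liver (log2 fold change 2.28, edgeR adjusted p = 4.46e-08). In none of these genes did a kidney reach the lowest liver. Scap held 63.1, 64.8, 61.1 and 65.6 CPM in kidney and 253, 204, 165 and 175.5 CPM in liver (log2 fold change 1.65, edgeR adjusted p = 1.09e-06). Srebf2 alone of the regulators missed the test, with 72.4 ± 6.29 CPM in kidney and 84.1 ± 17.6 CPM in liver (SD, n = 4, edgeR adjusted p = 0.258), and its test missed in the DMSO set too (log2 fold change 0.12, SE 0.122, edgeR adjusted p = 0.392). Without young liver replicate 4, the library with the lowest sterol score, Srebf2 and Mvd passed in young mice as well, which made 33 members.

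In the fatty acid arm Dgat2, which makes triglyceride from diacylglycerol, had the smallest p, with 137, 141, 136 and 151 CPM in young kidney and 768, 783, 669.5 and 835.5 CPM in young liver (log2 fold change 2.43, SE 0.135, edgeR adjusted p = 1.26e-08). Scd1, the stearoyl-CoA desaturase, had the highest level per length of all members in both tissues, at 1980 ± 969 RPKM in young liver and 246 ± 102 RPKM in young kidney (SD, n = 4). Thrsp held 26.2 to 59.6 CPM in kidney and 151 to 701 CPM in liver (log2 fold change 3.35, edgeR adjusted p = 3.09e-05). Pnpla3 held 10.25 ± 8.69 CPM in young liver and 3.81 ± 1.07 CPM in young kidney (SD, n = 4), and its call (log2 fold change 1.43, edgeR adjusted p = 0.0231) was lost without young liver replicate 1, where the log2 fold change was 0.69, and without young kidney replicate 2 (1.35) or 3 (1.35). In the DMSO set Pnpla3 held 4.0 to 9.8 CPM in kidney and 74.2 to 409.6 CPM in liver (log2 fold change 4.98, SE 0.479, edgeR adjusted p = 1.61e-06).

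**Figure D2:**
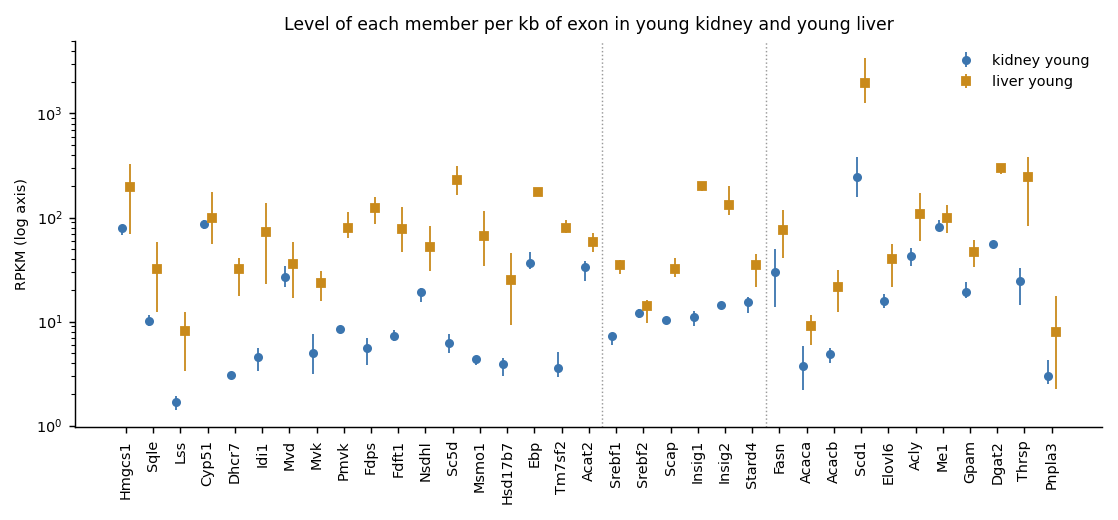
Each symbol is the mean of 4 libraries and each line runs from the lowest to the highest library, for kidney (blue circles) and liver (orange squares) of young mice; the vertical axis is RPKM on a log scale, and dotted lines part the sterol arm, the regulators and the fatty acid arm. Liver lies above kidney for nearly every gene, with the symbols of Cyp51, Mvd, Srebf2 and Me1 close together.

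In old kidney against young kidney, 5 members passed the test and they moved both ways. Fdps and Msmo1 were higher and Hmgcs1, Me1 and Gpam were lower, 2 and 3 of 35, where 11.5% of all 14495 genes tested passed, 8.15% as higher and 3.36% as lower. The 5 of 35 called were thus not far above the share of all genes. None passed the fold of 2, which 6.08% of all genes did. At an unadjusted p under 0.05 there were 12 members, without a share of all genes at that limit. DESeq2 called 3 members higher and 6 lower, among 1703 genes higher and 1350 lower. In 8 of 35 members the 4 old libraries did not overlap the 4 young ones, not far above the 17.8% of all genes. The arms leaned differently: 13 of 18 sterol genes had a log2 fold change above 0, with a median of 0.12, and 1 of 11 fatty acid genes (Elovl6) did, with a median of -0.41, against a median of 0.02 over all genes.

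Within the sterol arm the changes went in opposite directions along the same route. Hmgcs1 (chr13:119690379-119708260, plus strand, GRCm38), at its entry, held 437, 465, 468 and 386 CPM in young and 284, 346, 273 and 290.5 CPM in old kidneys (log2 fold change -0.56, SE 0.117, edgeR adjusted p = 0.0147). Msmo1 (chr8:64718139-64733792, minus strand), which removes the C4 methyl groups of sterol precursors, held 32.2, 34.7, 29.1 and 33.5 CPM in young and 44.9, 56.1, 60.8 and 48.4 CPM in old kidneys (log2 fold change 0.70, SE 0.122, edgeR adjusted p = 0.00624). Fdps (chr3:89093588-89101959, minus strand) held 26.8, 35.2, 19.7 and 33.4 CPM in young and 57.2, 50.3, 80.8 and 40.1 CPM in old kidneys (log2 fold change 0.98, SE 0.237, edgeR adjusted p = 0.0259). For each of the 3 genes all old kidneys lay on the same side of all young ones, with a narrow gap for Fdps. The call of Fdps was lost with replicate numbers as a block and without any 1 of 3 libraries (young replicates 1 and 3, old replicate 1), and that of Hmgcs1 without young replicate 2 (log2 fold change -0.53) or old replicate 4 (-0.54). In the annotation 26.7% of the exons of Fdps overlap another gene model on its strand, which is not among the counted genes.

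Hmgcs1 was also the most abundant of these 3, and the summed level of the sterol arm moved the other way from its score. The sterol score was 5.24 ± 0.088 in young and 5.34 ± 0.18 in old kidney, while summed CPM of the arm was 1304 ± 59.7 and 1195 ± 136 (SD, n = 4). Young and old kidneys overlapped in the score (5.126 to 5.321 and 5.1 to 5.533). They overlapped in the sum too (1224 to 1363 and 1009 to 1315 CPM), and neither difference was tested. Fdft1, which makes squalene, held 33.2 to 44.0 CPM in young and 46.7 to 66.6 CPM in old kidney and missed the test (log2 fold change 0.50, SE 0.147, edgeR adjusted p = 0.0551). Its exons overlap the abundant protease gene Ctsb on the other strand over 18.3% of their length, and the counting ignored strand.

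In the fatty acid arm both genes that passed were lower in old kidney. Me1 (chr9:86581371-86695953, minus strand), the malic enzyme that supplies NADPH, held 360.2, 433, 379.5 and 356 CPM in young and 253, 243, 259.5 and 214 CPM in old kidneys (log2 fold change -0.66, SE 0.112, edgeR adjusted p = 0.00531). Gpam (chr19:55067268-55127238, minus strand), the mitochondrial acyltransferase that starts glycerolipid synthesis, held 192, 137, 155 and 138 CPM in young and 98.5, 116, 94.0 and 81.4 CPM in old kidneys (log2 fold change -0.67, SE 0.146, edgeR adjusted p = 0.0165). No old kidney reached the lowest young one for either gene. The call of Gpam was lost without old replicate 4, where the log2 fold change was -0.60. Dgat2 held 199 to 224 CPM in young and 120.1 to 183 CPM in old kidneys and missed the test (log2 fold change -0.45, SE 0.138, edgeR adjusted p = 0.0621). Fasn, fatty acid synthase, held 186 to 652 CPM in young and 106 to 554 CPM in old kidneys and missed the test (log2 fold change -0.53, SE 0.496, edgeR adjusted p = 0.498). Acaca, Acly, Scd1 and Elovl6, other enzymes of fatty acid synthesis and desaturation, also missed it, with log2 fold changes of -0.55, -0.21, -0.15 and 0.11.

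Fat cell markers varied between kidneys too, but not in one order with the scores. The 8 adipocyte markers, all present, summed to 556.7, 425.9, 805.1 and 423.4 CPM in young kidneys 1 to 4, whose fatty acid scores were 7.20, 6.96, 6.47 and 6.56. They summed to 301.1, 159.4, 802.1 and 164.3 CPM in old kidneys 1 to 4, whose scores were 6.31, 6.36, 6.94 and 5.64. The highest sum thus went with the highest score among old kidneys and with the lowest score among young kidneys. The median log2 fold change of the 8 markers was -0.62. Only 1 of 8 (Lep) lay above 0, and it was called higher, while none was called lower. The difference in fatty acid score was -0.487 with all libraries, -0.696 without old replicate 3 and -0.262 without old replicate 4. The part of fat cells in the fatty acid results was not tested.

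Other measured lists also differed between young and old kidney. Macrophage markers summed to 89.5 to 100.1 CPM in young and 375.9 to 762.4 CPM in old kidneys, with 6 of 6 tested higher, and B and plasma cell markers summed to 4.622 to 9.317 CPM and 266.8 to 391 CPM, with 5 of 5 higher. Fasting response genes summed to 4174 to 6033 CPM in young and 1842 to 2554 CPM in old kidneys, with 2 of 7 tested lower, and clock genes to 262.6 to 349.8 CPM and 177.7 to 257.7 CPM, with none of 9 called by edgeR and 5 at an unadjusted p under 0.05. Proximal tubule markers, with 2 of 7 lower, summed to 20230, 10870, 21580 and 11490 CPM in old kidneys 1 to 4 and to 18940 to 25240 CPM in young kidneys. Fibroblast markers, with 1 of 7 higher, summed to 314.6 to 373.5 CPM in young and 287.2 to 618.2 CPM in old kidneys. Distal nephron markers, with 1 of 5 lower, summed to 7699 to 8533 CPM and 7603 to 8861 CPM. The part of these lists in the members' values was not tested. Of 2 further pathway lists, 2 of 15 other synthesis genes were lower and none was higher. These were Aacs, which activates acetoacetate for lipid synthesis (125 ± 23.2 to 52.6 ± 16.2 CPM, SD, n = 4, log2 fold change -1.26, edgeR adjusted p = 0.00619), and Lpin1, a phosphatidate phosphatase (log2 fold change -0.68, edgeR adjusted p = 0.00844). Of 10 LXR, ChREBP and sterol efflux genes tested, 1 was lower (Mylip, an LXR target, log2 fold change -0.68, edgeR adjusted p = 0.0289). Without old kidney replicate 2, the library rich in hepatocyte markers, 3 members were higher and 5 lower, where 1670 of all genes were higher and 1770 lower, against 1182 and 487 with all libraries. Fdft1 (edgeR adjusted p = 0.0297), Insig2 (0.0171) and Stard4 (0.00759) then joined the 5, and none was lost.

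**Figure D3:**
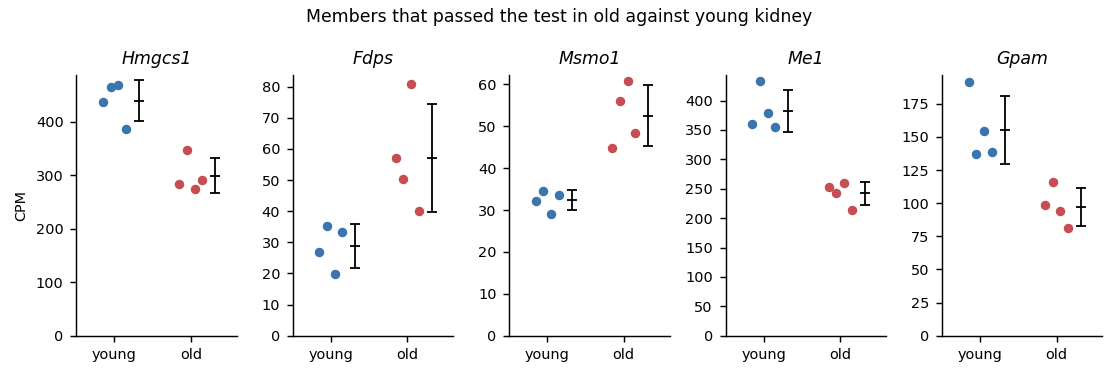
Each point is 1 kidney library, with young in blue and old in red, and the bars give mean and SD of 4; the vertical axes are CPM from 0. Fdps and Msmo1 lie higher and Hmgcs1, Me1 and Gpam lie lower in old kidney, with no overlap in any of the 5 panels.

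In old liver no member passed the edgeR test in either direction, where 2.46% of all 12537 genes passed, 1.91% as higher and 0.558% as lower, and 2.13% also passed the fold of 2. At an unadjusted p under 0.05 there were 4 (Me1, Scap, Insig1 and Insig2), and DESeq2 called Insig1 higher and Me1 and Scap lower, among 645 genes higher and 236 lower. The same 4 were the members whose groups did not overlap, against 9.95% of all genes. Me1 came closest, with 292, 179, 157 and 269 CPM in young and 144, 107, 91.8 and 105 CPM in old livers (a fold of 0.4996, SE 0.240 on the log2 scale, edgeR adjusted p = 0.0556). It passed without the filter on low counts (edgeR adjusted p = 0.0411) and without old liver replicate 1 (0.0228).

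The 3 others, Scap, Insig1 and Insig2, have roles in sterol sensing, but a count near the share of all genes does not show a change of that machinery. Scap held 176, 144.5, 116 and 123 CPM in young and 67.0, 88.3, 103 and 92.6 CPM in old livers (log2 fold change -0.67, SE 0.195, edgeR adjusted p = 0.109). Insig1 held 390.4, 328.5, 388 and 349 CPM in young and 465, 597, 446 and 624 CPM in old livers (log2 fold change 0.55, SE 0.190, edgeR adjusted p = 0.178). Insig2 held 211, 234, 403 and 216 CPM in young and 209, 168, 168 and 172 CPM in old livers (log2 fold change -0.57, SE 0.232, edgeR adjusted p = 0.277). The old livers thus lay lower for Scap and Insig2 and higher for Insig1, without any of them passing the edgeR test. The median log2 fold change was -0.05 in the sterol arm, with 8 of 18 above 0, and -0.14 in the fatty acid arm, with 3 of 11 above 0. Of the other pathway genes, 2 of 12 LXR, ChREBP and sterol efflux genes were lower in old liver and none was higher: Abcg5 (93.0 ± 16.8 to 32.65 ± 3.17 CPM) and Abcg8 (101 ± 20.2 to 41.6 ± 3.36 CPM, SD, n = 4), which together form the transporter that exports sterol into bile. Their log2 fold changes were -1.51 and -1.28 (edgeR adjusted p = 0.00168 and 0.00573). None of 15 other synthesis genes passed the edgeR test, with 3 at an unadjusted p under 0.05. Macrophage markers summed to 912.7 to 1424 CPM in young and 1454 to 2960 CPM in old livers, with 3 of 7 higher, and B and plasma cell markers to 6.166 to 8.705 CPM and 28.34 to 125.6 CPM, with 4 of 5 higher. Hepatocyte markers summed to 229200 to 359800 CPM in young livers and to 297700, 192300, 175200 and 189700 CPM in old livers 1 to 4, with none of 8 called by edgeR and 1 at an unadjusted p under 0.05. Fasting response genes lay at a median of -0.75 on the log2 fold scale, with 1 of 8 above 0, none called and 3 at an unadjusted p under 0.05. Old liver replicate 1 stood apart, with 108.4 CPM of clock genes against 242.2 to 338.7 CPM in the other old livers and 4554 CPM in the summed fatty acid arm against 11390 to 12580 CPM. Without it the log2 fold changes of Scap, Insig1 and Insig2 were -0.56, 0.61 and -0.65. The part of these lists in the values was not tested.

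Whether age acted differently on the members in liver and kidney was tested as an interaction. No member passed by edgeR, where 1.72% of 15036 genes did (0.871% as higher, 0.845% as lower and 1.54% past a fold of 2), and DESeq2 called none either. At an unadjusted p under 0.05 there were 4: Gpam (difference in log2 fold change, liver minus kidney, 0.88, SE 0.334, edgeR adjusted p = 0.222), Scap (-0.58, SE 0.217, 0.208), Msmo1 (-0.81, SE 0.379, 0.35) and Tm7sf2 (-0.61, SE 0.284, 0.35). Without old liver replicate 1, Gpam alone passed, and with all libraries a difference between the tissues in the response to age was not shown for any member.

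**Figure D4:**
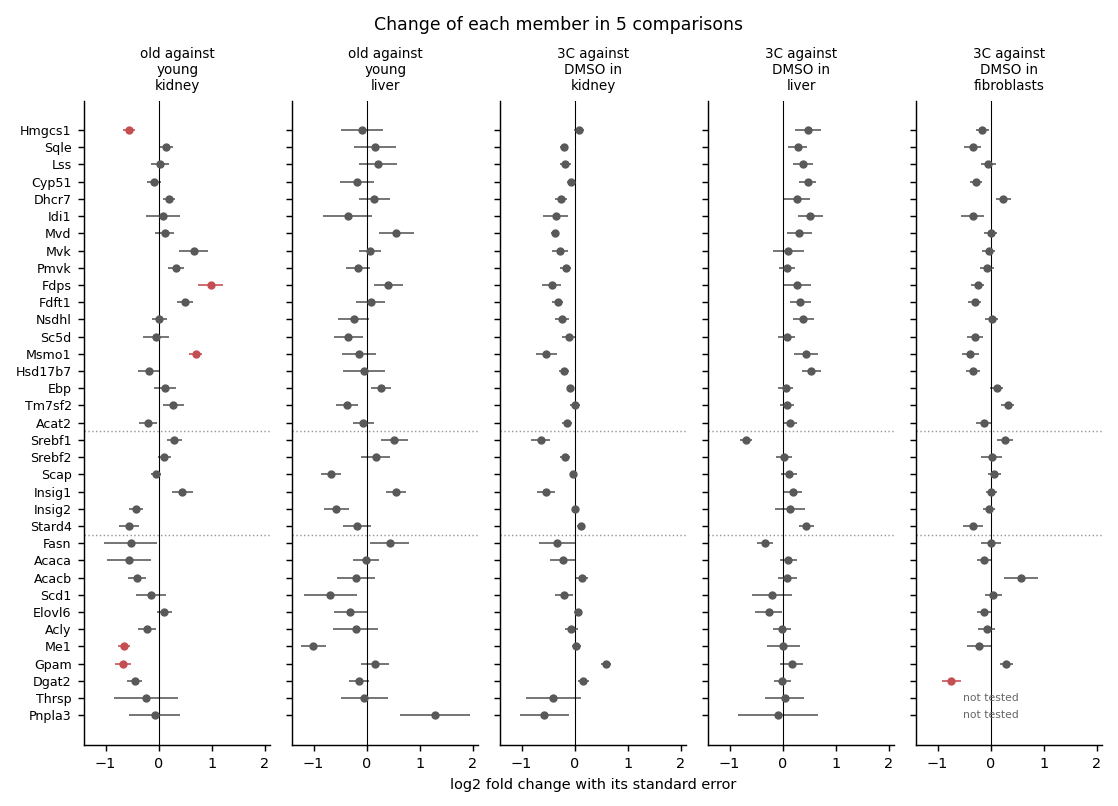
Points are log2 fold changes and lines their standard errors for the 35 members in 5 comparisons; red marks an edgeR adjusted p under 0.05, and dotted lines part the sterol arm, the regulators and the fatty acid arm. Red points appear in old against young kidney (5) and in fibroblasts (Dgat2), and all 18 sterol genes lie right of 0 in liver with 3C.

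Chromatin at the members' promoters was compared with age in the same tissues. Each promoter was given the highest fold enrichment over local background of a deposited peak within 1000 bp of an annotated start, or 0 without a peak. A peak was present in every library for 34 members in young and 33 in old kidney, and for 33 in young and 34 in old liver. Acaca, acetyl-CoA carboxylase 1, had none in any kidney library. The median enrichment was higher in sterol arm promoters (8.54 in young and 10.4 in old kidney) than in fatty acid arm promoters (4.25 and 5.06), beside 6.18 and 6.36 over the 15521 genes with a promoter peak in kidney.

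In kidney, 13 members had all 3 old libraries above all 3 young ones, and none had the reverse, where 14.1% of genes had the first pattern and 8.93% the second. The old kidney libraries held fewer peak intervals in all (93072 to 108970) than the young ones (115836 to 128395), and the part of this in the enrichments was not tested. The 13 members were 9 of 18 sterol genes (Hmgcs1, Idi1, Mvk, Fdft1, Nsdhl, Msmo1, Hsd17b7, Ebp and Dhcr7), 3 of 6 regulators (Srebf2, Insig1 and Stard4) and 1 of 11 fatty acid genes (Dgat2). With 3 libraries against 3 an exact permutation test cannot give a p below 0.1, and no other test was run on single promoters. At Msmo1 the fold enrichment was 8.26, 11.5 and 9.29 in young and 13.6, 14.7 and 16.4 in old kidney. At Hmgcs1 it was 6.02, 9.12 and 6.56 in young and 11.1, 11.5 and 13.7 in old kidney. Both promoters were thus more enriched in old kidney, although the RNA of Msmo1 was higher and that of Hmgcs1 lower.

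Among the regulators, Srebf2 had a fold enrichment of 5.51, 5.72 and 5.10 in young and 8.38, 7.76 and 10.7 in old kidney. Insig1 had 5.22, 5.37 and 5.28 in young and 8.18, 7.30 and 9.48 in old kidney, and the young values lay close together and well below the old. At Me1 (4.14 ± 0.474 and 4.59 ± 1.88) and Gpam (4.25 ± 1.02 and 4.56 ± 1.52, mean ± SD of fold enrichment, n = 3) the kidneys of both ages overlapped. Taking the median over the genes of an arm in each library, old minus young was 2.37 for sterol genes and 0.644 for fatty acid genes in kidney. With the mean over the genes, a summary added after the data were seen, it was 2.2 and 0.211. Without old kidney ATAC-seq replicate 3, the most enriched library, the differences of medians were 1.52 and 0.117. In liver the differences of medians were 0.647 and -0.0562, and those of means 0.634 and 0.158, so that the sign for the fatty acid arm turned with the summary. Without old liver ATAC-seq replicate 1 the difference of medians for sterol genes was 0.0329. There Stard4, Acly and Gpam had all old libraries above all young and Me1 the reverse, where 7.42% and 5.71% of 15543 genes did.

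**Figure D5:**
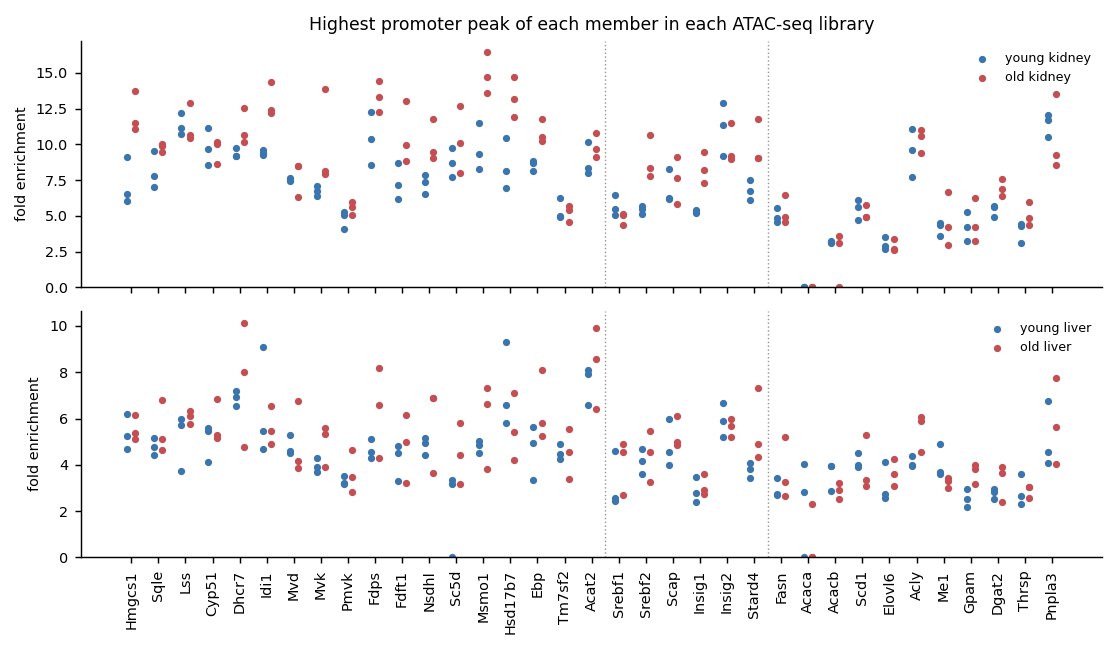
Each point is the highest promoter peak of a gene in 1 ATAC-seq library, as fold enrichment over local background, with young in blue and old in red for kidney (top) and liver (bottom); dotted lines part the sterol arm, the regulators and the fatty acid arm, and a point at 0 means no peak. In kidney the red points of Hmgcs1, Msmo1, Srebf2 and Insig1 lie above all blue ones, while in liver the colours mostly overlap.

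Treatment with 3C called no member in the liver of old mice by edgeR (percent called 0 of all 13042 genes), with 5 members at an unadjusted p under 0.05. DESeq2 called 5 genes higher and 2 lower, among them 1 member, Srebf1 (chr11:60199089-60222581, minus strand), as lower. Srebf1 held 497, 488, 469 and 464 CPM with DMSO and 327, 293, 288 and 286 CPM with 3C (log2 fold change -0.68, SE 0.114, unadjusted p = 8.38e-05 and edgeR adjusted p = 0.677). The groups were tight and far apart, and over all alternatives the edgeR log2 fold change was -0.73 to -0.66. Srebf2 held 102 ± 16.1 CPM with DMSO and 104.5 ± 16.9 CPM with 3C (SD, n = 4). Fasn, a target of SREBP-1c, held 1323, 1431, 1040 and 1249 CPM with DMSO and 856, 887, 1162 and 1104 CPM with 3C, which overlapped.

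In the same livers all 18 sterol genes had a log2 fold change above 0, with a median of 0.30 against 0.00 over all genes, and none passed the test. Hsd17b7, which acts late in the pathway, held 36.3, 57.3, 37.3 and 58.4 CPM with DMSO and 63.1, 63.5, 67.2 and 81.9 CPM with 3C (log2 fold change 0.54, SE 0.179, edgeR adjusted p = 1). Its groups did not overlap, and neither did those of Stard4, a carrier of sterol between membranes, with 82.8, 108, 81.4 and 100.2 CPM with DMSO and 145, 111, 119 and 132 CPM with 3C (log2 fold change 0.45, SE 0.137, edgeR adjusted p = 1). In all, 3 members did not overlap, against 2.22% of all genes. The genes of the arm share their libraries, and the sterol score was lowest in DMSO replicate 1 (6.90) and highest in 3C replicate 2 (7.96), and the difference of 0.318 was 0.191 without the former and 0.197 without the latter. Without liver 3C replicate 4, the library with kidney markers, it was 0.332, and the log2 fold changes of Srebf1, Hsd17b7 and Stard4 were -0.66, 0.45 and 0.43. Fasting response genes summed to 5749 to 7692 CPM with DMSO and 6633 to 8348 CPM with 3C in liver, with 7 of 8 above 0, none called by edgeR and 3 at an unadjusted p under 0.05. All 7 macrophage markers (378.6 to 945.5 and 287.2 to 681.1 CPM), all 5 B and plasma cell markers (15.12 to 48.57 and 18.42 to 40.19 CPM) and all 7 fibroblast markers (240.5 to 353.6 and 251.4 to 306.8 CPM) had a log2 fold change below 0, with none called and none at an unadjusted p under 0.05. The part of these lists in the members' values was not tested.

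In the kidney of these mice the sterol genes leaned the other way. No member passed by edgeR (percent called 0 of all 14974 genes), with 9 members at an unadjusted p under 0.05. DESeq2 called 71 genes higher and 152 lower, among them Gpam as higher and Mvd as lower. Gpam held 90.4, 109, 99.0 and 93.3 CPM with DMSO and 138, 136.5, 142 and 173.5 CPM with 3C (log2 fold change 0.59, SE 0.0875, edgeR adjusted p = 0.138), and it passed without 3C replicate 2 (edgeR adjusted p = 0.0498). Mvd, the mevalonate diphosphate decarboxylase, held 71.7, 69.2, 68.5 and 63.9 CPM with DMSO and 50.6, 51.2, 50.2 and 59.3 CPM with 3C (log2 fold change -0.37, SE 0.0678, edgeR adjusted p = 0.138). Neither gene's groups overlapped.

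Of the sterol genes 2 of 18 had a log2 fold change above 0 in kidney with 3C, with a median of -0.20. Srebf1 held 159, 120, 139 and 129 CPM with DMSO and 54.6, 103.5, 107 and 85.4 CPM with 3C (log2 fold change -0.64, SE 0.177, edgeR adjusted p = 0.229), again without overlap. In all, 4 members did not overlap (Mvd, Msmo1, Srebf1 and Gpam), against 6.94% of all genes. Kidney 3C replicate 1 was the lowest of its group for Srebf1, Insig1, Msmo1 and Fdps, and its summed clock genes were 880.1 CPM, against 250 to 354.5 CPM in the other 7 kidneys. Without it the log2 fold change of Srebf1 was -0.47. Liver 3C replicate 1 had high clock genes too (1263 CPM against 211.7 to 338.3), and without it the log2 fold change of Srebf1 in liver was -0.73. Fibroblast markers summed to 364.3 to 476.9 CPM with DMSO and 201.7 to 328.6 CPM with 3C in kidney. Macrophage markers summed to 255.7 to 310.4 CPM with DMSO and 172.6 to 255.3 CPM with 3C, and fasting response genes to 1508 to 2156 CPM and 1953 to 2928 CPM. None of 7 fibroblast, 6 macrophage and 7 fasting genes tested was called by edgeR, while 6, 4 and 6 had an unadjusted p under 0.05. All 8 adipocyte and all 5 B and plasma cell markers also had a log2 fold change below 0 (medians -0.68 and -1.01). None of them was called, 1 and 2 had an unadjusted p under 0.05, and the sums of both lists overlapped between groups. The part of these lists and of clock genes in the members' values was not tested.

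Tested as an interaction, the 3C effect in liver minus that in kidney passed for no member by edgeR (percent called 0 of 15526 genes) or by DESeq2. All 18 sterol genes had a larger log2 fold change in liver than in kidney, with a median difference of 0.51 against -0.01 over all genes. The share of all genes at an unadjusted p under 0.05 was not taken, and 10 members had such a p. The smallest was that of Hsd17b7 (difference 0.72, SE 0.213, unadjusted p = 0.0035 and edgeR adjusted p = 1). For Srebf1 the difference was -0.06 (SE 0.224).

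In fibroblasts, 33 members could be tested, since Thrsp and Pnpla3 fell below the count filter. Dgat2 was lower with 3C and none was higher, 1 and 0 of 33, where 4.22% of 13449 genes passed by edgeR, 2.43% as higher and 1.78% as lower. No member passed the fold of 2, against 1.87% of all genes. At an unadjusted p under 0.05 there were 7, and DESeq2 called the same single member. Dgat2 (chr7:99153658-99182719, minus strand) held 12.8, 9.68 and 11.5 CPM with DMSO and 7.25, 5.79 and 7.32 CPM with 3C (log2 fold change -0.74, SE 0.178, edgeR adjusted p = 0.0445). The groups did not overlap, but the call was lost when any 1 of the 6 libraries was left out. In 5 members the groups did not overlap, against 25.5% of all genes. The sterol genes lay at a median log2 fold change of -0.14, with 4 of 18 above 0. Fdps, at 417, 361 and 402 CPM with DMSO and 315.5, 322 and 358 CPM with 3C, had an edgeR adjusted p of 0.296. Srebf1 and Srebf2 gave log2 fold changes of 0.27 (SE 0.144) and 0.02 (SE 0.195). Of 9 LXR, ChREBP and sterol efflux genes tested, 1 was higher: Abca1, the cholesterol efflux transporter, at 45.7 ± 7.10 CPM with DMSO and 72.2 ± 2.55 CPM with 3C (SD, n = 3, log2 fold change 0.66, edgeR adjusted p = 0.0191). Macrophage markers, with 2 of 5 tested lower, summed to 191.4 to 250.9 CPM with DMSO and 70.83 to 109.5 CPM with 3C, and clock genes, with 3 of 9 tested higher, summed to 153.8 to 185.2 CPM and 201.6 to 243.3 CPM. The part of either list in these values was not tested.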

How the data were processed

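RNA-seq (38 libraries in 10 groups) and ATAC-seq (12 libraries in 4 groups) were analysed from processed files, with groups taken from the sample labels. The deposited RNA-seq values are counts, whole reads per gene, which the authors obtained with HTSeq 0.12.4 without using strand, after trimming (Trimmomatic 0.39) and alignment to mm10 (HISAT2 2.2.1). For ATAC-seq the authors aligned with Bowtie2, removed duplicates and called peaks with MACS2 in each library. For each peak the deposited values are a fold enrichment, which is a ratio over local background, and a −log10 q.

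The members and lists were chosen with earlier results of these data known. Any of the 35 members could be named. Values in every library were given for called members with the smallest p and for the called SREBP regulators, and for members near the threshold chosen after their values were seen. Genes outside the members were named only from the lists. Each comparison was fitted in edgeR 4.0.16 (R 4.3.3) with TMM factors, filterByExpr at a minimum count of 10 and the two-sided quasi-likelihood F test, adjusted over all genes tested, and called at an adjusted p under 0.05. The fits were also run on simulated data with changes of a fold of 2 or more, so the power for smaller changes was not measured. Counts of members at an unadjusted p under 0.05 have no share of all genes beside them, so they show no excess over all genes. Scores used log2 CPM with a prior count of 2. Promoter peaks lay within 1000 bp of GENCODE vM21 starts on GRCm38, and sequences came from RefSeq. Alternatives were DESeq2 1.42.0, RLE factors, no filter, a mean of at least 1 CPM, the authors' fold limit of 2, leaving out each library and a block for replicate number. Replicate numbers are shared between groups, and samples with the same number deviated together (correlation over 0.1 in all 4 pairs), among the comparisons made, only in liver against kidney of young mice, where the block left 31 members higher. With 14.2 to 43.7 M counts per library, the lowest members were Thrsp and Pnpla3 in fibroblasts (1 to 8 counts), which were not tested there.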

Additional observations from a re-analysis of the deposited data

Results flagged for a closer look

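One value was far from its group among 26 groups tested. The fatty acid arm score of DMSO kidney replicate 2 was 5.9, while the other 3 DMSO kidneys lay between 6.35 and 6.37. The sterol score of the same library, 5.20, lay within its group. Its adipocyte markers summed to 90.09 CPM, against 179.3 to 199.6 CPM in the other 3, and their part in the score was not tested. Chance marks about 1 in 20 groups.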

How the results depend on the processing

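No called member changed its direction under any alternative. Of 18 arm differences, 5 changed sign under at least 1 alternative, all of them small. In old liver these were the sterol score (0.0391, range -0.19 to 0.227), the fatty acid score (-0.0843, range -0.252 to 0.138) and the fatty acid promoter enrichment (-0.0562, range -0.371 to 0.163, and 0.158 with the mean over genes, a summary chosen after seeing the data). With 3C they were the fatty acid score in fibroblasts (-0.0413, range -0.167 to 0.0387) and in liver (-0.0971, range -0.272 to 0.0362). In old kidney 1 member was higher with the replicate block and none past the fold of 2, and leaving out each library gave 1 to 5. For lower members there DESeq2 gave 6, the fold of 2 gave 0 and leaving out each library gave 1 to 5. In old liver DESeq2 gave 1 higher and 2 lower, the replicate block 1 higher (Pnpla3, adjusted p = 0.0497), no filter 1 lower, and leaving out each library 0 to 1 lower. In fibroblasts the lower count was 0 past the fold of 2 and 0 without any 1 library. In kidney with 3C DESeq2 gave 1 higher and 1 lower, and leaving out each library gave 0 to 1 higher. In liver with 3C DESeq2 gave 1 lower. In liver against kidney of DMSO mice the lower count was 0 past the fold of 2 and 0 to 1 when leaving out each library. In the age interaction it was 0 to 1 higher when leaving out each library. Apart from these, the replicate block changed no count of members past 1.5 times. In no comparison other than liver against kidney of young mice did every pair of the same number have a correlation over 0.1. Pairing was not checked between livers and kidneys of old mice, which enter the age interaction, or of 3C mice. The cause of these changes was not tested. With 3 or 4 libraries a group, counts of 5 or fewer called members rest on few libraries.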
